A study of Mus musculus with 20 samples.

Results

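Cardiac expression of 10 genes of iron export, hepcidin and its BMP signaling axis was analysed, out of 23420 genes counted. The genes were named as a list, chosen with earlier results of these data known, and all 10 were among the 13590 genes that passed the filter on low counts and were tested. They are *Slc40a1*, *Heph* and *Cp* (iron export), *Hamp*, *Hfe* and *Hfe2* (hepcidin and its sensors), *Bmp6* (a ligand), and *Id1*, *Smad6* and *Smad7* (targets and feedback inhibitors of BMP signaling). Messenger RNA was measured by RNA sequencing in frozen whole hearts of 20 male wild-type C57BL/6 mice aged 9 weeks. From weaning at 3 weeks of age, 10 mice ate a control diet and 10 an iron-deficient diet for 6 weeks, which made the latter iron-deficient and anemic (IDA mice). The labels disagree on how much iron the deficient diet held. Each mouse was sequenced as a separate library, with 6797180 to 8960688 read pairs assigned to genes in control and 6682177 to 7833916 in IDA mice. The study left 1 mouse of each group out of its own analysis without naming it, so all 20 were kept here.

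Ferroportin, the product of *Slc40a1*, is the only known exporter of iron from mammalian cells, and the ferroxidases hephaestin (*Heph*) and ceruloplasmin (*Cp*) oxidize the iron it releases so that transferrin can bind it. Hepcidin, encoded by *Hamp*, binds ferroportin and causes its degradation, and the heart makes its own hepcidin besides that of the liver. In hepatocytes, *Hamp* transcription is driven by BMP6 through BMP receptors, the co-receptor hemojuvelin (*Hfe2*, also called *Hjv*) and SMAD1, SMAD5 and SMAD8, while the same signal switches on *Id1* and the inhibitory SMADs, *Smad6* and *Smad7*, which dampen it.

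The messenger RNA of ferroportin carries an iron-responsive element, a hairpin bound by iron regulatory proteins when iron is low, in its 5′ untranslated region. It is shown because it places ferroportin under control of translation as well as of transcript level, and only the latter was measured here. In isolated cardiomyocytes of IDA mice the study reported ferroportin protein and total iron as unaltered. On the mouse build mm10 (GRCm38) the element lies at chr1:45925465-45925494 on the minus strand, at bases 89 to 118 of the spliced transcript in the GENCODE annotation. The 6 loop bases are in capitals:
*Slc40a1* element: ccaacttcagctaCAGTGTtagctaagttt

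The pattern searched, a bulged C followed by a stem of 5 base pairs that closes the loop CAGTGN, occurred in the 5′ untranslated region of 31 of 20045 genes (0.155%), *Slc40a1* among them. The promoter of *Hamp* is shown because BMP signaling (through SMADs) and inflammatory signaling (through STAT3) are known to reach it in the liver. The corresponding stretch of its neighbour *Hamp2* is shown beside it for comparison. Each is a stretch of 60 bases that ends 66 bases before the transcription start in RefSeq (GRCm38.p6), at chr7:30944095-30944154 for *Hamp* and chr7:30924247-30924306 for *Hamp2*, both on the minus strand. Capitals mark GGCGCC, the core of the BMP-responsive element, and TTCNNNGAA, the STAT pattern:
*Hamp*: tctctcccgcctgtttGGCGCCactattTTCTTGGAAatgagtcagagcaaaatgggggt
*Hamp2*: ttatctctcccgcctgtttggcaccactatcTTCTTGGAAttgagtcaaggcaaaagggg

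Searched on both strands in the 250 bases before the start, GGCGCC was present in 9.586% and TTCNNNGAA in 7.02% of 32851 mouse promoters. The 2 patterns did not overlap in *Hamp*, where they started at -109 and -97. In *Hamp2*, TTCNNNGAA started at -94 and GGCGCC was absent. Of the 10 genes, 5 had a promoter sequence that could be read, and GGCGCC was found in that of *Hamp* and not in those of *Cp*, *Hfe*, *Bmp6* and *Smad6*. A match of letters is a description and not a measured binding site.

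Ferroportin transcript fell in IDA hearts, *Smad6* and *Smad7* rose, and *Hamp* did not pass the test. *Id1* rose without correction and with correction for gene length, but did not pass with correction for length and GC content. In all, 8 of the 10 genes passed an adjusted p of 0.05 in edgeR's quasi-likelihood test, 5 higher and 3 lower in IDA. The background was large, since 67.5% of all tested genes passed (35% higher, 32.5% lower), so this count by itself does not set the 10 genes apart. In 4 of the 10 genes the CPM values (counts scaled to library size) of the 20 mice did not overlap between the groups, against 11.3% of all tested genes. Fold changes fell with the exonic length of genes (Spearman's rho of -0.63 across genes, which are not independent replicates), a trend whose cause was not tested. Each value was therefore also computed after removal of each mouse's trend on gene length, and after removal of the trends on length and GC content. With the length correction, 5 of the 10 genes passed (4 higher, 1 lower) against 55% of all tested genes (31.5% higher, 23.5% lower). With both corrections 5 passed (3 higher, 2 lower) against 46.8% (26.8% higher, 20% lower). By the rule of the study, a p below 0.01 in both edgeR and DESeq2, 8 passed against 59.8% of all tested genes (8131 genes). The study, which left out 1 mouse of each group, reported far fewer genes by this rule, most of them lower in IDA. The reason for that difference was not tested. *Slc40a1*, *Smad6* and *Smad7* passed in the same direction in all 3 fits. In whole hearts, fewer cells of a type and less RNA per cell cannot be told apart.

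**Figure D1:**
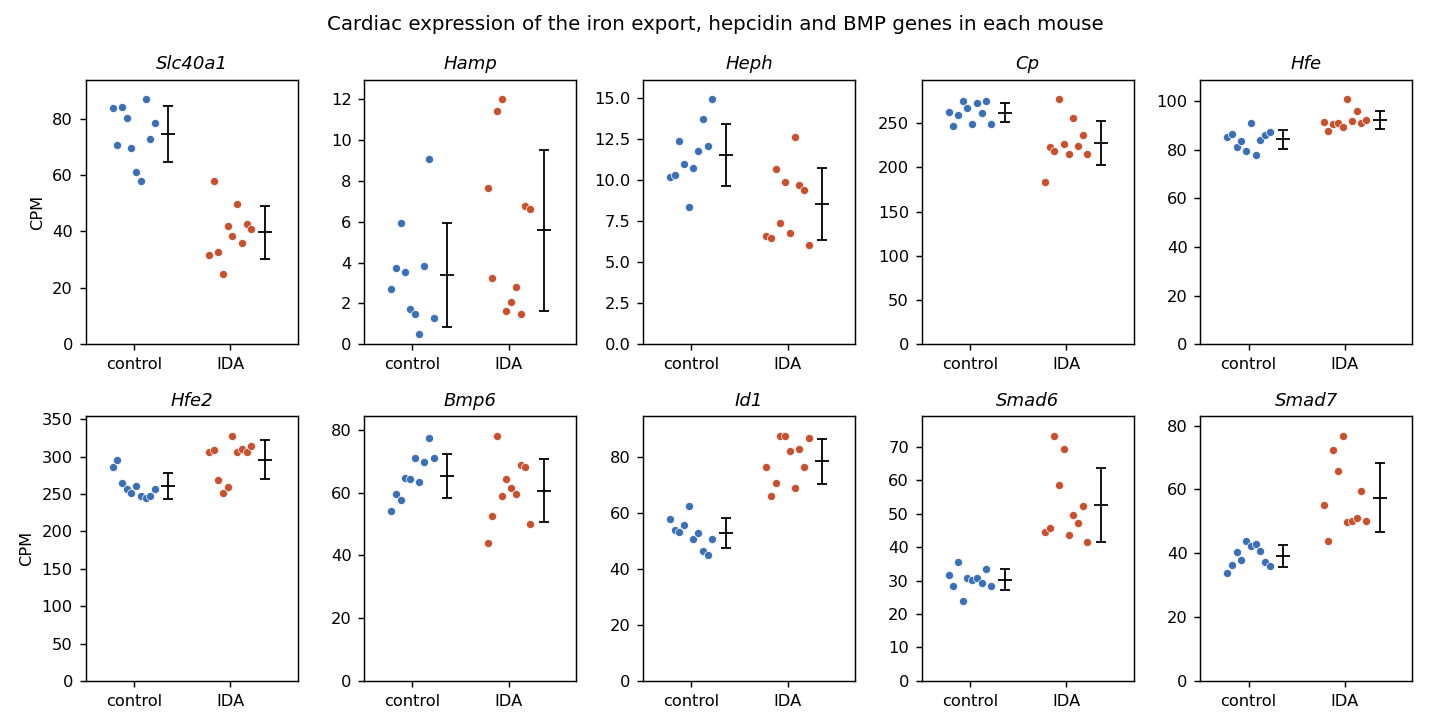
CPM (counts scaled to library size, vertical axes from 0) of the 10 genes, with a point per mouse for 10 control (blue) and 10 IDA mice (orange) and the mean ± SD in black. The points of the groups do not overlap for *Slc40a1*, *Id1*, *Smad6* and *Smad7*, and those of *Hamp* overlap, with extremes of 0.492 and 12 CPM.

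Ferroportin is encoded on chr1:45908070-45925594 (minus strand), with 3380 exonic bases in 8 exons. *Slc40a1* had a median of 75.5 CPM in control (lowest 58.0, highest 86.8) and of 39.5 CPM in IDA mice (lowest 24.9, highest 57.9). Every IDA mouse thus lay below every control mouse, although the highest IDA value and the lowest control value were nearly equal. The mean was 74.5 ± 9.84 CPM (SD, n = 10) in control and 39.6 ± 9.43 CPM (SD, n = 10) in IDA, a log2 fold change of -0.91 (SE 0.11, edgeR adjusted p = 6.0e-07), or -46.9%. Of the 13590 tested genes, 538 had a more negative fold change. The log2 fold change was -0.81 with the length correction (edgeR adjusted p = 2.70e-06) and -0.63 with length and GC correction (edgeR adjusted p = 1.93e-05). The column names carry numbers whose meaning the labels do not give, called library numbers here. These numbers fall into a lower block (5 control, 7 IDA mice) and a higher block (5 control, 3 IDA mice). The log2 fold change of *Slc40a1* was -0.87 within the lower and -0.95 within the higher block.

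Ferroportin is abundant in macrophages that recycle red cells and in erythroid precursors as well as in cardiomyocytes. The summed CPM of 12 macrophage markers overlapped between the groups (719 to 821 in control, 687 to 852 in IDA), with 4 of the 12 genes higher, 4 lower and a median log2 fold change of -0.01. With the length correction 3 were higher and 3 lower. *Mertk* (log2 fold change -0.93, and -0.81 with the length correction), *Cd163* (-0.61 and -0.36) and *Lyve1* (-0.40 and -0.42) were lower in both fits. *C1qa* (0.41 and 0.14) and *C1qb* (0.38 and 0.10) were higher in both, so the sum does not describe all of these markers. The 8 cardiomyocyte markers summed to 4417 to 5306 CPM in control (mean 4931) and 3882 to 5447 CPM in IDA mice (mean 4586), with 3 genes higher and 1 lower, or 2 higher and 5 lower with the length correction. The gene that was lower without correction was *Ryr2*, with 16813 exonic bases and means of 1774 CPM in control and 1248 CPM in IDA mice. Its log2 fold change was -0.51, and 0.28 with the length correction. Every other marker of the list had a higher mean in IDA, so the lower mean sum came from *Ryr2*. IDA replicates 1, 3 and 4 had the lowest cardiomyocyte sums of their group (4129, 4179 and 3882 CPM) and its lowest *Slc40a1* (31.6, 32.6 and 24.9 CPM), and IDA replicate 7 had the highest sum and the second highest *Slc40a1* (49.7 CPM). In control mice, replicate 8 had one of the lowest sums (4531 CPM) and the highest *Slc40a1* (86.8 CPM). The part of cardiomyocyte or macrophage RNA in the level of *Slc40a1* was not tested. The erythroid list moved with the diet, with a sum of 51.1 to 123 CPM in control and 131 to 507 CPM in IDA. Both tested genes (*Alas2* and *Slc4a1*) rose. No read pairs were counted for the globin genes *Hba-a1*, *Hba-a2* and *Hbb-b2* in any library. These missing counts do not show that globin RNA was absent, and their cause was not tested. When the mean of *Alas2* and *Slc4a1* entered the model, *Slc40a1* had a log2 fold change of -1.13 (SE 0.22, edgeR adjusted p = 0.000365). Because both genes rose with the diet, this fit cannot separate erythroid RNA from the diet. The part of erythroid RNA in the level of *Slc40a1* was not tested.

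Hephaestin is a membrane ferroxidase best known from the gut, and *Heph* (chrX:96455436-96574484, 5933 exonic bases) was the least expressed of the 10 genes per length. *Heph* had a median of 11.4 CPM in control (lowest 8.34, highest 14.9) and of 8.38 CPM in IDA mice (lowest 6.04, highest 12.6), so that the groups overlapped, with 5 IDA mice below every control mouse. The log2 fold change was -0.43 (SE 0.13, edgeR adjusted p = 0.00553), and with the length correction it was -0.07 (edgeR adjusted p = 0.65).

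Ceruloplasmin is the copper ferroxidase of plasma, and also occurs anchored to cell membranes. *Cp* (chr3:19957054-20009750, 6265 exonic bases, of which 108 are shared with exons of *Hps3* and could not be assigned by strand) had a median of 261.7 CPM in control (lowest 247.2, highest 274.7) and of 224 CPM in IDA mice (lowest 183, highest 277). Its direction turned with the correction: the log2 fold change was -0.20 (SE 0.05, edgeR adjusted p = 0.00153) without it, 0.20 (edgeR adjusted p = 0.00268) with the length correction and 0.39 (edgeR adjusted p = 3.11e-05) with length and GC correction. No direction is therefore given for *Cp*, the longest of the 10 genes.

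Cardiac hepcidin messenger RNA was scarce and varied widely between mice. *Hamp* (chr7:30942369-30944017, minus strand, 394 exonic bases in 3 exons) was counted with 4 to 96 read pairs per library. It had a median of 3.12 CPM in control (lowest 0.492, highest 9.09) and of 4.94 CPM in IDA mice (lowest 1.47, highest 12), and the groups overlapped along most of that range. The means were 3.38 ± 2.56 CPM (SD, n = 10) and 5.57 ± 3.95 CPM (SD, n = 10), with a log2 fold change of 0.74 (SE 0.42, edgeR adjusted p = 0.127). With the length correction it was 0.33 (SE 0.42, edgeR adjusted p = 0.53). A two-sided permutation test on mean log2 CPM with 100000 resamples gave p = 0.174. The error leaves room for a rise as well as for no change, since the spread between mice was 75.7% of the mean in control and 70.8% in IDA. Control replicate 9 held the highest control value, and 7 of the 10 fits without it and without 1 IDA mouse passed the test, with log2 fold changes of 1.02 to 1.16. The lower and higher library number blocks gave 0.56 (edgeR adjusted p = 0.46) and 1.09 (edgeR adjusted p = 0.0448). The closely related *Hamp2* had 0 to 8 read pairs per library and was not tested, and reads of the 2 paralogs may be shared between them.

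The highest *Hamp* values occurred in mice with high levels of markers of mesothelium, the heart's outer lining, and in IDA mice also of atrial markers. The summed CPM of 6 mesothelial markers was highest in control replicate 9 among control mice (61.0) and in replicates 3 and 4 among IDA mice (102.9 and 93.9), the same 3 mice that had the highest *Hamp* of their groups (9.09, 11.4 and 12 CPM). IDA replicate 5, with a sum of 53.0, had 1.62 CPM of *Hamp*. The atrial list of 4 genes summed to 212 to 459 CPM in control and 236.8 to 530 CPM in IDA mice, with *Nppa* higher in IDA and *Sln*, *Myl4* and *Myl7* not called. The highest atrial sums belonged to IDA replicates 3 (530.4 CPM), 8 (529.9 CPM) and 4 (516 CPM), of which replicates 3 and 4 had the highest and replicate 8 the lowest *Hamp* of the group. For the liver, the main source of hepcidin, the sum of 8 hepatocyte markers was 11 to 85.4 CPM in control and 7.83 to 178 CPM in IDA mice, and the mice at the top (control replicate 4 and IDA replicate 7) had 3.54 and 2.80 CPM of *Hamp*. Only 3 of the 8 reached the filter. *Ahsg* had the highest mean of the list (13.2 CPM in control, 20.7 CPM in IDA mice). It was called higher without the length correction (log2 fold change 0.65, edgeR adjusted p = 0.0263) and not with it (0.45, edgeR adjusted p = 0.143). What these tissues contributed to *Hamp* was not tested. Without the 4 mice whose mesothelial sum passed 50 CPM, the log2 fold change of *Hamp* was 0.68 (edgeR adjusted p = 0.129).

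**Figure D2:**
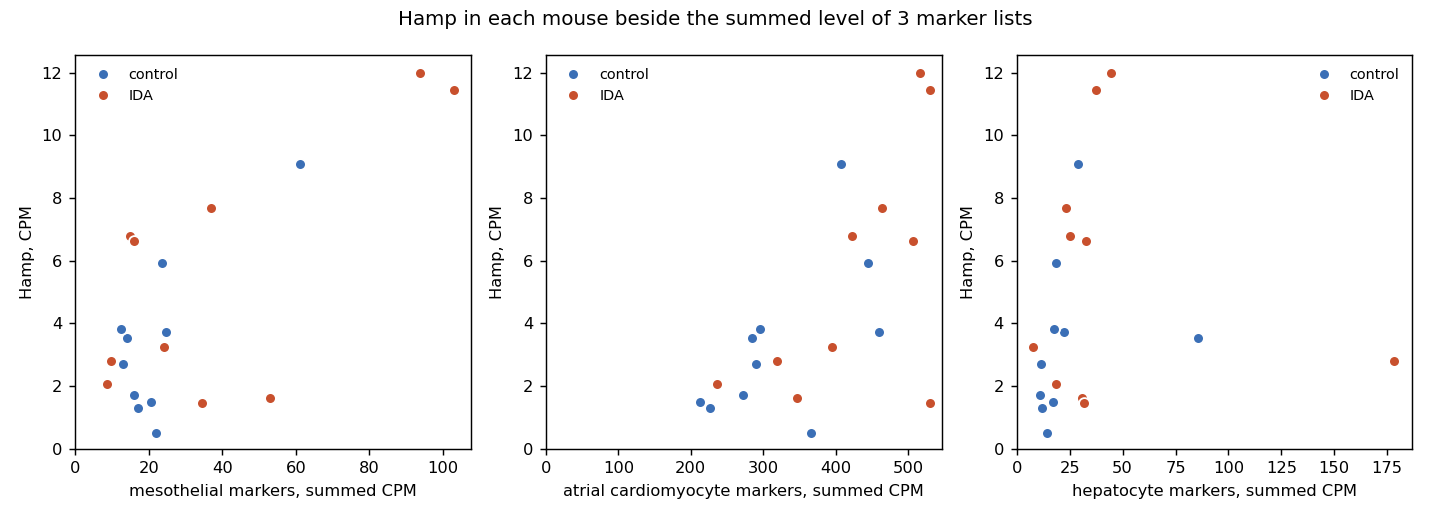
*Hamp* (CPM, vertical axis) in each of 10 control (blue) and 10 IDA mice (orange) against the summed CPM of mesothelial, atrial cardiomyocyte and hepatocyte markers (horizontal axes). The 3 mice with mesothelial sums of 61.0, 93.9 and 102.9 CPM have the highest *Hamp*, and the 2 mice with the highest hepatocyte sums do not.

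The sensor genes *Hfe* and *Hfe2* differed little. HFE, which is mutated in hereditary hemochromatosis and meets the transferrin receptors, is encoded on chr13:23703841-23710811 (minus strand, 1722 exonic bases). *Hfe* had a median of 84.6 CPM in control (lowest 77.7, highest 90.7) and of 91.1 CPM in IDA mice (lowest 87.6, highest 100.6), so that 7 IDA mice lay above every control mouse. The log2 fold change was 0.13 (SE 0.03, edgeR adjusted p = 0.00213), and with the length correction it was -0.04 (edgeR adjusted p = 0.34).

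Hemojuvelin is the BMP co-receptor that in juvenile hemochromatosis is lost, and it is made mainly in striated muscle and liver. *Hfe2* (chr3:96525185-96529216, 2021 exonic bases) had a median of 256.7 CPM in control (lowest 244.5, highest 295.6) and of 306.8 CPM in IDA mice (lowest 250.8, highest 327.7), with the groups overlapping. The log2 fold change was 0.18 (SE 0.05, edgeR adjusted p = 0.00268), and it was 0.07 (edgeR adjusted p = 0.24) with the length correction and -0.08 (edgeR adjusted p = 0.23) with length and GC correction. *Hfe2* held 1.02 read pairs per exonic base on average, more than all but 1.82% of tested genes, after removal of PCR duplicates by position. The densest gene of a library held 2.06 to 2.39. How far duplicate removal narrowed differences in *Hfe2* was not tested.

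BMP6 is the ligand that liver endothelial cells release when iron is plentiful. *Bmp6* (chr13:38345716-38499728, 2410 exonic bases) had a median of 64.6 CPM in control (lowest 54.3, highest 77.4) and of 60.6 CPM in IDA mice (lowest 43.9, highest 78.0), and the groups overlapped over most of the range. The log2 fold change was -0.11 (SE 0.08, edgeR adjusted p = 0.256). It was -0.16 (edgeR adjusted p = 0.119) with the length correction and -0.36 (SE 0.09, edgeR adjusted p = 0.00213) with length and GC correction, and *Bmp6* was also called lower within the lower library number block (-0.19, edgeR adjusted p = 0.0392). The call thus depended on the correction and on the mice included. In no fit was *Bmp6* called higher.

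ID1, the product of an immediate target of BMP signaling, inhibits basic helix-loop-helix transcription factors, and *Id1* lies at chr2:152736274-152737410 with only 911 exonic bases. It had a median of 53.1 CPM in control (lowest 45.0, highest 62.7) and of 79.5 CPM in IDA mice (lowest 66.0, highest 87.6), with no overlap. Means were 53.0 ± 5.23 CPM (SD, n = 10) in control and 78.6 ± 8.07 CPM (SD, n = 10) in IDA, a log2 fold change of 0.57 (SE 0.06, edgeR adjusted p = 3.05e-07). The value was smaller under both corrections: the log2 fold change was 0.27 (edgeR adjusted p = 0.0011) with the length correction and 0.13 (edgeR adjusted p = 0.106) with length and GC correction. It was 0.74 within the lower and 0.31 within the higher library number block, and within the higher block with the length correction it was -0.01 (edgeR adjusted p = 0.95). The call of *Id1* therefore depended on the correction and on the block.

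SMAD6 is the inhibitory SMAD that acts mostly on BMP receptors, and in the adult heart and vessels it is expressed mainly by endothelium. *Smad6* (chr9:63953076-64022059, minus strand, 2971 exonic bases) had a median of 30.4 CPM in control (lowest 23.7, highest 35.4) and of 48.4 CPM in IDA mice (lowest 41.4, highest 73.2). Every IDA mouse lay above every control mouse, with a gap of several CPM. The means were 30.2 ± 3.15 CPM (SD, n = 10) and 52.5 ± 11 CPM (SD, n = 10), with a log2 fold change of 0.80 (SE 0.10, edgeR adjusted p = 5.61e-07). Of the 13590 tested genes, 184 had a larger fold change. It was 0.85 (edgeR adjusted p = 6.41e-07) with the length correction, 0.59 (edgeR adjusted p = 7.68e-05) with length and GC correction, and 0.77 and 0.85 within the lower and higher library number blocks.

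SMAD7 inhibits both BMP and TGF-β receptors. *Smad7* (chr18:75367365-75395934, 4441 exonic bases) had a median of 39.1 CPM in control (lowest 33.7, highest 43.69) and of 53.1 CPM in IDA mice (lowest 43.72, highest 76.7), so that the groups did not overlap but touched. The means were 39.1 ± 3.34 CPM (SD, n = 10) and 57.4 ± 10.9 CPM (SD, n = 10), with a log2 fold change of 0.55 (SE 0.09, edgeR adjusted p = 9.47e-06). It was 0.79 (edgeR adjusted p = 5.84e-07) with the length correction, 0.61 (edgeR adjusted p = 3.45e-06) with length and GC correction, and 0.53 and 0.56 within the lower and higher library number blocks.

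**Figure D3:**
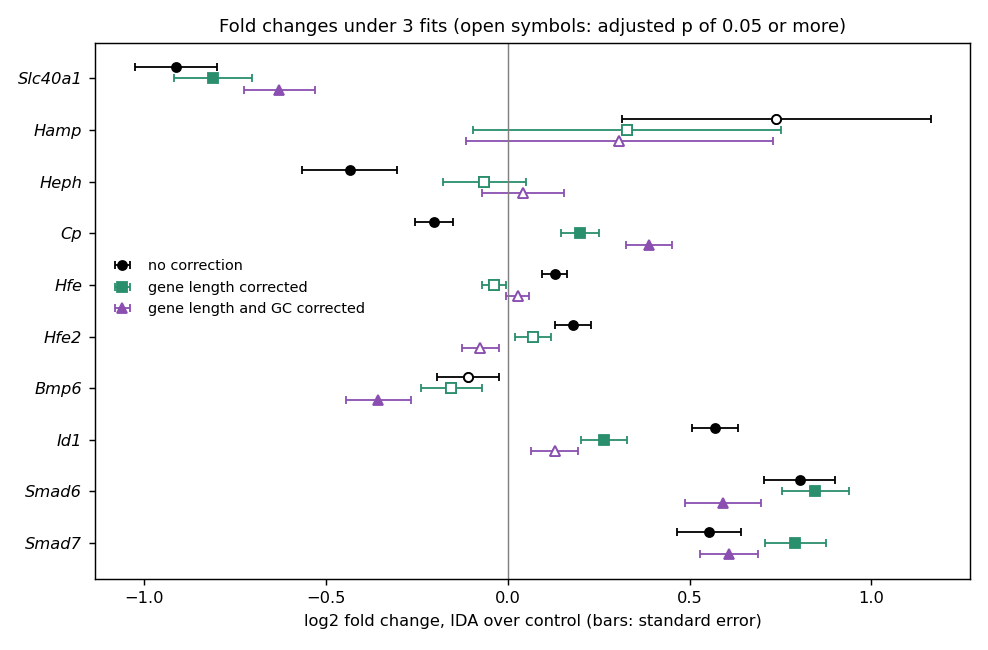
Log2 fold change of IDA over control (horizontal axis) for the 10 genes under 3 fits, with the standard error as bars and open symbols where the adjusted p was 0.05 or more. *Slc40a1* stays between -0.91 and -0.63, *Smad6* between 0.59 and 0.85 and *Smad7* between 0.55 and 0.79, while *Cp* changes sign.

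The IDA mice were more spread than control mice in both inhibitory SMADs. IDA replicates 3, 4 and 5 had the highest values of both genes, with 73.2, 58.5 and 69.3 CPM of *Smad6* and 72.2, 65.9 and 76.7 CPM of *Smad7*. Among the 10 IDA mice, *Smad6* and *Smad7* varied together (Pearson's r = 0.906, permutation p = 0.00065). Over the 18 relations computed the adjusted p was 0.0117. Spearman's rho was 0.83 (permutation p = 0.00529, adjusted p = 0.0952), and r was 0.748 once the 2 mice most distant from the median *Smad6* were set aside. Those were replicates 3 and 5, so replicate 4 remained, and r without all 3 was not computed. With the length correction r over the 10 IDA mice was 0.80 (permutation, adjusted p = 0.0931). In the 10 control mice r was 0.148 (permutation p = 0.70), and the difference between the groups was not tested. Among the other relations computed, none passed the adjusted threshold. *Bmp6* had an r of 0.66 with *Smad6* in IDA mice (permutation p = 0.0363, adjusted p = 0.218, rho 0.64 with permutation p = 0.0547, r = 0.453 without the 2 most distant mice), and an r of -0.69 with *Id1* in control mice (permutation p = 0.0276, adjusted p = 0.218, rho -0.71 with permutation p = 0.026, r = -0.445 without the 2 most distant mice).

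**Figure D4:**
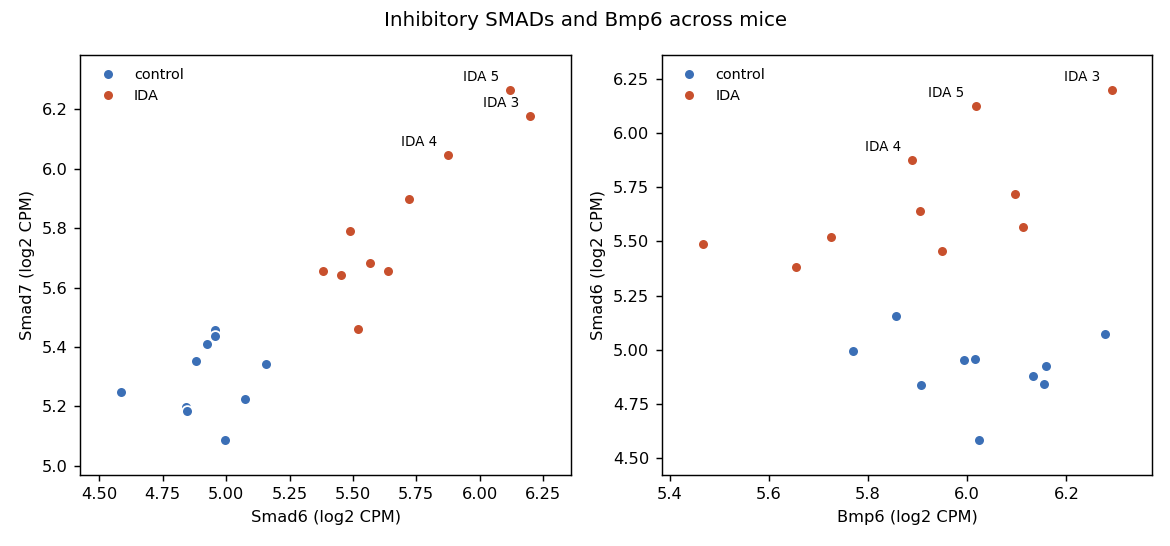
*Smad7* against *Smad6* (left) and *Smad6* against *Bmp6* (right), in log2 CPM, with a point for each of 10 control (blue) and 10 IDA mice (orange). IDA replicates 3, 4 and 5 hold the highest values of both inhibitory SMADs, and *Bmp6* overlaps between the groups while *Smad6* does not.

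The same 3 IDA mice had the highest mesothelial sums of their group (102.9, 93.9 and 53.0 CPM) and the highest macrophage sums. The 12 endothelial markers summed to 2145 to 2426 CPM in control (mean 2272) and 2000 to 2385 CPM in IDA mice (mean 2176), and went both ways, with 6 genes higher (*Cldn5* by 0.80 on the log2 scale), 5 lower (*Erg* at -0.65) and a median log2 fold change of 0.04. With the length correction 6 were higher and 2 lower. The part of endothelial, macrophage or mesothelial RNA in these changes was not tested. Without the 4 mice of mesothelial sums above 50 CPM (control replicate 9 and these 3), the log2 fold change was 0.62 for *Smad6* (edgeR adjusted p = 1.77e-06), 0.36 for *Smad7* (edgeR adjusted p = 0.000107) and -0.84 for *Slc40a1* (edgeR adjusted p = 5.02e-06). The value of *Smad7* thus moved by the largest proportion of these 3, while its call remained, and with the length correction as well it was 0.61.

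Levels were compared between genes per kilobase of exon (RPKM). In control hearts the order was *Hfe2* (129 ± 8.47 RPKM, SD, n = 10), *Id1* (58.1 ± 5.74), *Hfe* (48.9 ± 2.24), *Cp* (41.8 ± 1.72), *Bmp6* (27.1 ± 2.93), *Slc40a1* (22 ± 2.91), *Smad6* (10.2 ± 1.06), *Smad7* (8.81 ± 0.753), *Hamp* (8.58 ± 6.50) and *Heph* (1.95 ± 0.318). Neighbours whose ranges over mice overlapped were *Id1* with *Hfe*, *Bmp6* with *Slc40a1*, *Smad6* with *Smad7*, *Smad7* with *Hamp* and *Hamp* with *Heph*. In IDA hearts the *Slc40a1* transcript moved from place 6 to place 9, at 11.7 ± 2.79 RPKM (SD, n = 10). It lay below *Smad6* (17.7 ± 3.72) and near *Smad7* (12.9 ± 2.45), from which its range was not separate. *Hfe2*, *Id1*, *Hfe*, *Cp* and *Bmp6* kept their places at the top.

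Outside the 10 genes, 65 genes of the same pathway were listed by role, and 52 of them were tested. Of these, 13 were higher and 26 lower, where 35% of all tested genes were higher and 32.5% lower. Their median log2 fold change was -0.18 against 0.02 over all tested genes. With the length correction 15 were higher and 17 lower, with a median of -0.01, where 31.5% of all tested genes were higher and 23.5% lower. The counts of the lists below are to be read beside these same shares. The balance between higher and lower genes thus changed with the correction, and values are given under both fits.

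The BMP receptors had the lowest median of the lists (log2 fold change -0.51). Of 10 tested receptors and co-receptors, 2 were higher and 7 lower (2 and 6 with the length correction). *Bmpr2*, the type II receptor mutated in heritable pulmonary arterial hypertension, spanned 27.3 to 95.0 CPM in control mice, against 12.3 to 33.3 in IDA mice. Its log2 fold change was -1.55 (SE 0.21, edgeR adjusted p = 1.36e-06), and -1.42 with the length correction. *Acvr2a*, another type II receptor, had no overlap between the groups (50.9 to 85.3 CPM against 24.1 to 48.9 CPM) and a log2 fold change of -1.02 (edgeR adjusted p = 3.45e-07), or -0.67 with the length correction. *Acvrl1* and *Eng*, the ALK1 receptor and its co-receptor endoglin of endothelial cells, rose. *Eng* spanned 303 to 361 CPM in control mice, against 371 to 465 in IDA mice, without overlap, with log2 fold changes of 0.37 (SE 0.04, edgeR adjusted p = 2.92e-07) and 0.50 with the length correction. For *Acvrl1* they were 0.43 (edgeR adjusted p = 1.01e-06) and 0.57.

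BMP ligands other than *Bmp6* were low. *Bmp4* had 18.9 CPM on average in control and 21.0 in IDA mice and did not pass the test (log2 fold change 0.15, edgeR adjusted p = 0.167), nor did *Bmp2* (-0.13, edgeR adjusted p = 0.39). *Bmp5* fell (-0.50, edgeR adjusted p = 0.0257) and *Bmp7* rose (0.30, edgeR adjusted p = 0.0457), and only *Bmp5* passed with the length correction (-0.53). *Bmp10*, a ligand of the atria, did not reach the filter and spanned 0 to 62.2 CPM in control mice, against 0 to 72.6 in IDA mice.

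Of the SMADs that carry the signal, *Smad1* fell in both fits (log2 fold change -0.39, edgeR adjusted p = 0.000148, and -0.34 with the length correction). *Smad5* was lower without the length correction (-0.32, edgeR adjusted p = 1.10e-06) and higher with it (0.14, edgeR adjusted p = 0.00422). *Smad4*, the shared partner, had -0.16 (edgeR adjusted p = 0.000486), and -0.06 (edgeR adjusted p = 0.103) with the length correction, and *Smad9*, which encodes SMAD8, did not pass (-0.34, edgeR adjusted p = 0.0916).

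Among 7 other targets of BMP signaling 5 were higher and none lower, with a median log2 fold change of 0.36. The 2 with the largest rises were *Hey1* (0.48, edgeR adjusted p = 0.00012), a Notch and BMP target in endothelium, and the homeobox gene *Msx1* (0.48, edgeR adjusted p = 0.0268). *Id2*, *Id3* and *Atoh8* were the others. With the length correction 2 were higher, *Hey1* (0.40) and *Atoh8* (0.40, edgeR adjusted p = 0.000205), and 1 lower, *Id4* (-0.53), while *Id3* (0.07) and *Id2* (0.00) did not pass.

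Of 12 tested BMP inhibitors 2 were higher and 8 lower, and with the length correction 4 were higher and 4 lower. *Nbl1*, a secreted antagonist, and *Bambi*, a pseudoreceptor that BMP signaling itself induces, rose in both fits, with log2 fold changes of 0.58 (edgeR adjusted p = 3.50e-05) and 0.31 (edgeR adjusted p = 0.000419), or 0.42 and 0.61 with the length correction. *Chrdl1*, a chordin-like antagonist, fell (-1.14, edgeR adjusted p = 0.000249, and -0.70 with the length correction) at a low level of 4.99 CPM in control. *Skil* fell without the length correction (-0.51) and was at -0.06 with it. *Grem1* had no read pairs in any library.

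Of 7 tested partners and regulators of ferroportin, 4 were lower and none higher, and 3 were lower and 1 higher with the length correction. *Bach1*, the heme-sensing repressor of *Slc40a1*, spanned 76.2 to 132 CPM in control mice, against 39.4 to 75.1 in IDA mice. It fell by 0.93 on the log2 scale (edgeR adjusted p = 6.44e-07), and by 0.57 with the length correction. *Ireb2*, which encodes iron regulatory protein 2, fell by 0.70 (edgeR adjusted p = 6.44e-07) and by 0.34 with the length correction, while *Aco1*, which encodes iron regulatory protein 1, had a log2 fold change of 0.01 (edgeR adjusted p = 0.75) and 0.24 with the length correction (edgeR adjusted p = 0.00012). *Epas1*, which encodes HIF-2α, an activator of *Slc40a1* in the gut, had -0.42 (edgeR adjusted p = 6.33e-05), and -0.09 (edgeR adjusted p = 0.227) with the length correction.

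Of 11 tested genes of hepcidin control, 4 were higher and 4 lower, and 6 and 1 with the length correction. *Spint2*, which inhibits the protease matriptase-2, and *Atoh8*, a transcription factor that acts on *Hamp*, rose in both fits (log2 fold changes 0.51, edgeR adjusted p = 7.23e-07, and 0.46, edgeR adjusted p = 4.06e-05). *Il6ra*, the receptor for the interleukin that raises hepcidin in inflammation, fell in both (-0.77, edgeR adjusted p = 0.00133, and -0.67 with the length correction). *Neo1*, the hemojuvelin receptor neogenin, fell without the length correction (-0.49) and was at -0.02 with it. *Tfrc*, which encodes the transferrin receptor, rose in both fits (0.41, edgeR adjusted p = 0.00104, and 0.69 with the length correction). *Tfr2*, *Tmprss6*, *Fam132b* (erythroferrone) and *Il6* did not reach the filter.

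**Figure D5:**
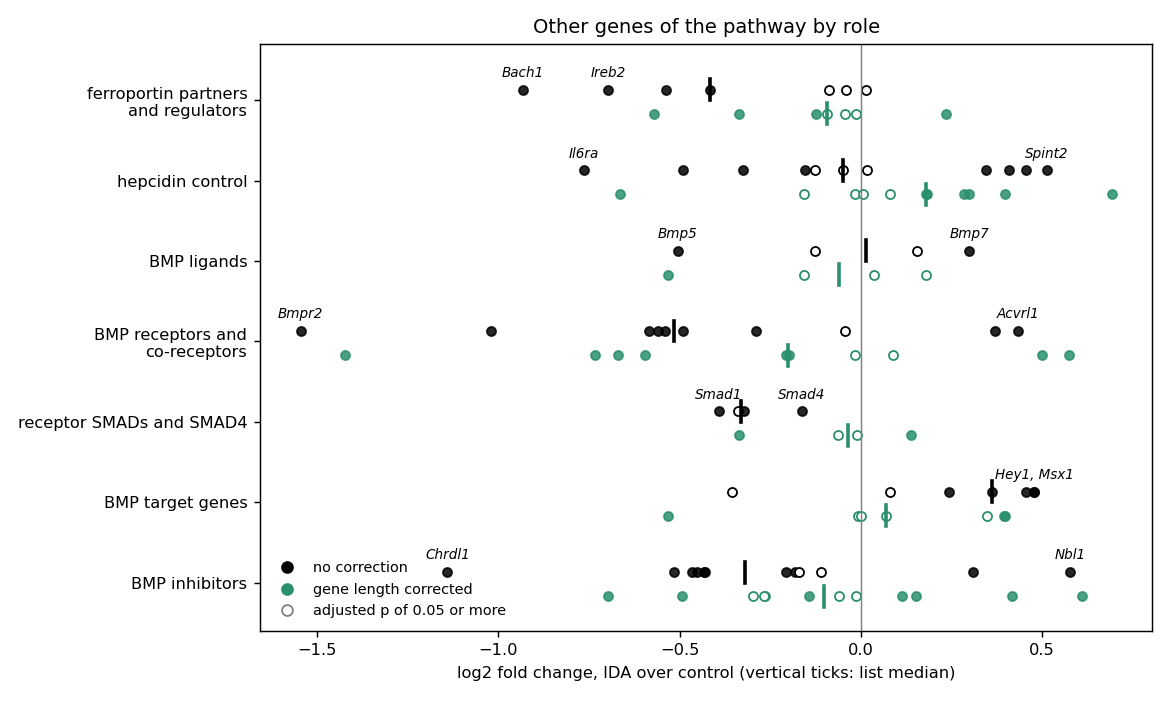
Log2 fold change of IDA over control (horizontal axis) of the tested pathway genes other than the 10, by role, without (black) and with (green) the gene length correction. Filled points passed an adjusted p of 0.05, and ticks are list medians. Named points are extremes among the genes that the naming rule picked from each list, not always of the whole list. *Bmpr2* (-1.55) is the lowest point, and the median of the receptors moves from -0.51 to -0.20 with the correction.

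The genes whose values followed ferroportin most closely from mouse to mouse were *Nadkd1* (r = 0.914), a mitochondrial NAD kinase, *Tmem65* (0.885), *Tbc1d4* (0.874), which acts in glucose uptake, *Jph1* (0.872), a junctophilin, and *Ppm1k* (0.87), a mitochondrial phosphatase. These are descriptions over the 20 mice after subtraction of each group's mean, in which points share depth and library composition, and r stayed between 0.79 and 0.90 with the length correction. All 5 were lower in IDA. Nearest to *Id1* were *Sh2d3c* (r = 0.787), *Sema6b* (0.765), *Trib1* (0.763), *Jdp2* (0.731) and *1810043G02Rik* (0.699), for which r was 0.653, 0.51, 0.57, 0.74 and 0.498 with the length correction. Of these genes, *Sema6b*, *Jdp2* and *1810043G02Rik* were higher in IDA. Nearest to *Hfe2* were *Rpl3l* (r = 0.97), a ribosomal protein of striated muscle, *Sgca* (0.965), a sarcoglycan of muscle, *Tcea3* (0.963), *Aldh2* (0.959) and *Fastk* (0.957), and r lay between 0.931 and 0.967 with the length correction.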

How the data were processed

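Reads (75-base pairs) were mapped by the authors to mm10 using STAR, PCR duplicates were discarded using samtools, and, per the file headers, featureCounts (1.4.5-p1) assigned read pairs to the exons of named genes, ignoring strand. The deposited values are these raw counts for 23420 genes, beside exonic lengths. The 13590 genes that reached 1 CPM in 10 or more mice entered edgeR 4.0.16 (TMM factors, quasi-likelihood test, no covariates), with Benjamini-Hochberg adjustment over all of them, and a gene was called at an adjusted p below 0.05. Log2 CPM used a prior count of 2. The length correction removed a loess curve (span 0.5, degree 1) of each mouse's deviations on log2 exonic length, and the GC correction a further curve on the GC content of each gene's longest GENCODE transcript (known for 99.2% of tested genes). DESeq2 1.42.0, other scalings and filters, covariates, a replicate block, library number blocks and the omission of mice were alternatives. Models were tested on simulated data. Permutation tests were two-sided with 100000 resamples.

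Same-numbered mice of the 2 groups had correlations of -0.28 to 0.26 between their deviations from the group means. Of the 10 control mice, 3 correlated best with the IDA mouse of their own number. The labels state no pairing, and the main fit used none. The 10 genes, the pathway and marker lists and the rule for named genes were chosen with earlier results of these data known. The rule named the 10 genes, the 2 called genes of each pathway list with the largest rise and the 2 with the largest fall (all genes of lists with 4 or fewer tested), and the 5 genes most alike to *Slc40a1*, *Id1* and *Hfe2*. *Bmp10*, *Id2*, *Id3*, *Id4*, *Aco1*, *Epas1*, *Tfrc* and *Atoh8* as a BMP target were named after their values were seen. Duplicate removal limits the counts of densely covered genes. An erythroid marker is not reported here and was left out of its list and of the erythroid covariate.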

Additional observations from a re-analysis of the deposited data

How the results depend on the processing

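In all 16 other fits of the 20 mice or of named subsets, *Slc40a1* stayed lower (log2 fold change -1.13 to -0.63) and *Smad6* (0.59 to 0.92) and *Smad7* (0.36 to 0.79) higher, each past the threshold. With gene length correction 5 of the 10 genes were called, 1 of them lower, *Cp* turned to 0.20 and *Hfe* to -0.037. With length and GC correction 5 were called, 3 of them higher, and *Heph* (0.042), *Cp* (0.39) and *Hfe2* (-0.075) turned. With log2 library size as a covariate *Bmp6* turned to 0.021 and *Heph* and *Hfe2* lost their calls, as *Heph* did with the erythroid covariate. In the lower library numbers with length correction *Cp* was 0.27 and *Hfe* -0.036. In the higher ones with length correction 3 genes were called, 2 higher and 1 lower, and *Cp* (0.047), *Hfe* (-0.081), *Hfe2* (-0.020) and *Id1* (-0.0087) turned, with only 5 control and 3 IDA mice. Without the mice of high mesothelial sums and with length correction *Cp* was 0.16 and *Hfe* -0.038. Without correction, the lower library numbers ended the call of *Cp* and the higher ones those of *Heph*, *Hfe* and *Hfe2*, while *Hamp* gained one in the higher. *Bmp6* was called lower with length and GC correction (-0.36), in the lower library numbers without (-0.19) and with (-0.23) length correction, and without the mice of high mesothelial sums with it (-0.21). Fits by library number and by mesothelial sum were chosen after seeing the data. Apart from those stated, the causes were not tested. The replicate block gave 8 called genes, 5 higher and 3 lower, and changed no call. Over the 100 fits without 1 mouse of each group, calls changed only for *Hamp* (7 fits, all without control replicate 9) and *Bmp6* (1 fit, without control replicate 1 and IDA replicate 3, log2 fold change -0.18, edgeR adjusted p = 0.0447). The r of *Smad6* with *Smad7* in IDA mice lost its call with length correction. No gene of the 10 was under the filter, so the alternatives planned for such genes gave no value. Depth limits *Hamp* most, at 4 to 96 read pairs per library.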

Other observations

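The genes whose values followed *Smad6* most closely over the 20 mice, after subtraction of each group's mean, were *Plxnc1* (r = 0.865), *Msr1* (0.851), *Vcam1* (0.838), *Prss23* (0.837) and *Ctso* (0.837). *Msr1* is a scavenger receptor of macrophages and *Vcam1* an adhesion molecule of activated endothelium. *Plxnc1* was lower in IDA (log2 fold change -0.58, edgeR adjusted p = 0.000187), and the other 4 did not pass the test. *Smad6* was added to the genes examined in this way after its values were seen.

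For *Hamp*, also added after its values were seen, the closest genes were *Efemp1* (r = 0.806), an extracellular matrix gene, *Cpne5* (0.801), *Scrn1* (0.766), *4833424O15Rik* (0.756) and *Tmem119* (0.75). These r values are descriptions, and the points share depth and library composition.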
